A study of Mus musculus with 4 samples.

Results

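Adipocyte genes are 10 genes that fat cells use to take up, store and release lipid and to signal to other tissues: Adipoq, Lep, Cfd, Retn, Lpl, Cd36, Fabp4, Plin1, Cidec and Pck1. They were chosen by name with earlier results of these data known, and all 10 were found among the 15816 genes listed in at least 1 of the 4 deposited expression tables. The tissue is the lower lid, taken from wild-type mice of the inbred strain C57BL/6 and sequenced as RNA, with 1 sequencing library for each of 4 groups. The groups are males of 3 months and females of 3 months, called young here, and males of 2 years and females of 2 years, called old. No transgene, deletion or drug is given in the labels for any group, and the number of animals in a library is not stated there. The lid is a mixed tissue of meibomian glands, skin with hair follicles, conjunctiva, orbicularis muscle, dermis, vessels and subcutaneous fat, so each level is that of the whole excised lid. Fewer cells of a type and less RNA per cell cannot be told apart in such a sample.

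White fat cells store triglyceride in 1 large droplet and are the main source of the hormones adiponectin and leptin. Fatty acids reach the cell when lipoprotein lipase on the capillary wall cuts circulating triglyceride, and they are re-esterified and coated with perilipin at the droplet surface. The nuclear receptor PPARG, bound to RXR, and the factor C/EBP alpha switch these genes on. In the lid, the meibomian gland cells, which are related to sebaceous cells, also accumulate lipid under the control of PPARG, so several lipid genes are shared by both cell types. Cd36, Fabp4 and Lpl are in addition made by macrophages or by the endothelium of capillaries, and only part of the 10 genes is therefore restricted to fat.

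The old female library stood apart from the rest before any adipocyte gene was considered. Its log2 values correlated with those of the other libraries at a Pearson's r of 0.940 to 0.966 across 12094 genes, against 0.984 to 0.988 among the other 3, as a description across genes that are not independent. It listed 342 genes that no other table held, against 83 to 104 in the other libraries, although its summed base coverage was the lowest, at 3.16 gigabases against 3.78 to 3.91. Since a group is 1 library, group differences lack any check by replicates and carry no p-value. The unit is RPKM, which is scaled to gene length and library total, so levels of different genes can be set side by side.

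The promoters of 4 members are shown because these genes stand for the patterns described below: Adipoq, which was near the listing limit in 3 libraries, Lep and Plin1, which were listed in old females only, and Cd36, which was abundant in every library. They are the 250 bases before the annotated start in RefSeq, build GRCm38.p6, written 5′ to 3′ on the strand of the gene. Adipoq lies at chr16:23146286-23146535 on the plus strand, Lep at chr6:29059971-29060220 on the plus strand, Plin1 at chr7:79732777-79733026 on the minus strand and Cd36 at chr5:17835897-17836146 on the minus strand. Capitals mark the motif matches described after the sequences.
Adipoq: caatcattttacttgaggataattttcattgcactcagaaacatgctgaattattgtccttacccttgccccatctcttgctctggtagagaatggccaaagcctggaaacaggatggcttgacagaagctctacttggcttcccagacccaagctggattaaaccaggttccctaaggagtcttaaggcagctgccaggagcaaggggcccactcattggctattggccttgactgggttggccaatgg
Lep: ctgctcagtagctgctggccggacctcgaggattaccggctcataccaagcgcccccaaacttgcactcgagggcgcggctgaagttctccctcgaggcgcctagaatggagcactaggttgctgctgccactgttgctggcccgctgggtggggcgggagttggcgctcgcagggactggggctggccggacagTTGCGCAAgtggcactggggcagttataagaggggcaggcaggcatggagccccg
Plin1: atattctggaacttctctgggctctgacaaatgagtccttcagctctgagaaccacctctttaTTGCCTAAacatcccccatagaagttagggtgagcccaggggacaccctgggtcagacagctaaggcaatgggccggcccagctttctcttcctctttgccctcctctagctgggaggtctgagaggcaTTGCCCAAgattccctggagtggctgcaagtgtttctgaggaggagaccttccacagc
Cd36: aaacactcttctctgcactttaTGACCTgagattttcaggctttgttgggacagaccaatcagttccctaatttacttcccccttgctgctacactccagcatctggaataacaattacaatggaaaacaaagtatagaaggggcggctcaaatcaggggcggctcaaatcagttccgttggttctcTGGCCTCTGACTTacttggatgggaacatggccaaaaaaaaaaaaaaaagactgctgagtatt

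The motifs searched on both strands, from 250 bases before to 50 after the start, were the nuclear receptor element AGGTCA, a pair of these elements 1 base apart with at most 2 mismatches (DR1, the element of PPARG with RXR), the C/EBP core TTGCNNAA and the TATA box TATAAA. A promoter window was in the reference table for 8 of the 10 members, Fabp4 and Lpl being the others, with 9 windows since Cidec had 2. The Lep promoter held the C/EBP core 55 to 48 bases before the start, read the same on both strands, and Plin1 held it 187 to 180 and 58 to 51 bases before its start. One of the Cidec windows also held it, so 3 of the 8 members had the core, which 10.8% of all 32851 windows hold. Cd36 held AGGTCA 228 to 223 bases before its start and a DR1 with 2 mismatches 63 to 51 bases before it, both on the opposite strand. No other member held AGGTCA, which 16.3% of all windows contain, or a DR1, which 3.86% contain, and no member held the TATA box in these letters (13.6% of windows). The Cd36 window lies inside the gene as the authors' tables place it, so it stands for 1 of several starts. These matches describe letters in a short window and say nothing on binding.

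The secreted products came first. Adipoq encodes adiponectin, a hormone made by fat cells that raises insulin sensitivity. It reached 0.153 RPKM in young males, 0.223 in old males and 3.45 in old females, and young females had no listed value. The old female library was therefore the 1 library above 1 RPKM, and the other 3 lay near or under the bottom of the tables, whose lowest listed values were 0.12502 to 0.12513 RPKM. The base coverage behind these levels was 800 bases in young males, 1200 in old males and 15000 in old females. In the authors' deposited table of genes higher in old females, which keeps values under that limit, Adipoq stood at 0.117 RPKM in young females and 29.6-fold higher in the old. That lower value corresponds to 600.0 bases of coverage. In males, with 800 and 1200 bases, whether the ages differed was not detectable at this depth.

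Cfd, which encodes complement factor D or adipsin, a serine protease of the alternative complement pathway that mouse fat secretes in large amounts, had 0.305 RPKM in young males, 0.801 in young females, 1.04 in old males and 10.8 in old females. Both old libraries lay above both young ones, and within each age the female library lay above the male. Old to young, the RPKM ratio was 13.5 in females and 3.41 in males, the largest ratio of any member in males that was listed at both ages. Coverage was 1200 and 4200 bases in young and old males and 3099 and 35299 bases in young and old females.

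Retn, the hormone resistin of mouse white fat, was listed in the 2 old libraries only, at 0.197 RPKM in males and 1.84 in females. The old female level was at least 14.7-fold above the lowest value the young female table lists, and the old male level at least 1.58-fold above that of the young male table. Coverage was 500 bases in old males and 3776 in old females. The authors' deposited tables give Retn as 0 in young females and 0.0404 RPKM in young males, the latter equal to 100.01 bases. Lep, leptin, the satiety hormone whose output follows the size of the fat stores, was listed in old females alone, at 0.305 RPKM and 3500 bases. The authors' deposited table sets it at 0.0147 RPKM in young females, which is 200.1 bases of coverage, and 20.7-fold higher in the old.

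The coverage behind these low levels was thin. Among genes with under 3000 bases in a library, 26.3% to 29.5% had an exact multiple of 100 bases, and most genes had not. Members with such multiples under 3000 were Adipoq in both male libraries, Cfd in young males, Retn in old males and Cidec in young females (1900 bases). Above 3000 bases, Lep and Adipoq in old females and Cfd and Cidec in old males (4300 bases for Cidec) also had exact multiples of 100. The values of the authors' deposited tables under the listing limit converted to 600.0 bases for Adipoq, 200.1 for Lep, 400 for Pck1 and 186.0 for Plin1 in young females, 0 for Retn in young females and 100.01 for Retn in young males. How many reads lie behind these values is not known.

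**Figure D1:**
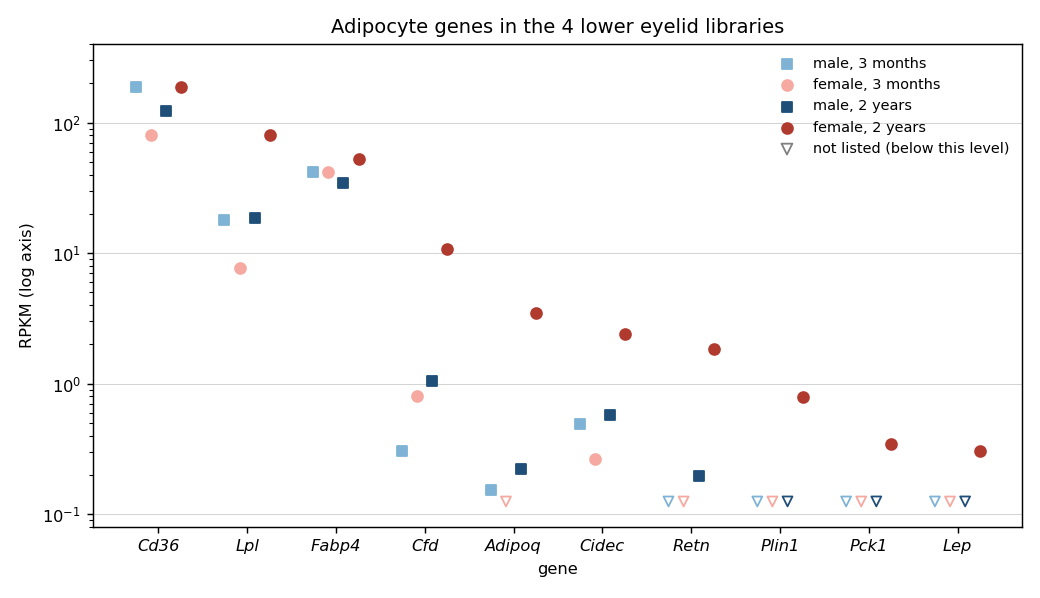
RPKM of the 10 adipocyte genes in each of the 4 libraries, on a log axis, with genes ordered by their level in old females and open triangles at the lowest listed value for genes that a table does not list. The old female library is the highest for every gene, by 187.9 against 187.7 RPKM over the young male for Cd36, and the other 3 libraries list none of Plin1, Pck1 and Lep.

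Lipid uptake genes were abundant in all libraries. Lpl, lipoprotein lipase, had 17.9 RPKM in young males, 7.71 in young females, 18.5 in old males and 79.9 in old females. The 2 male libraries were close to each other, the young female lay below both and the old female above both. In females the old level was 10.4 times the young, and in males 1.03 times. Its log2 difference of 3.22 in females, on the log2(RPKM + 1) scale used for all differences here, ranked 6 of 15816 listed genes. Coverage was 130397 bases at the lowest, so that depth limits this gene much less than the hormones.

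Cd36, a scavenger receptor that carries long-chain fatty acids into cells, had 187.7 RPKM in young males, 80.6 in young females, 123.6 in old males and 187.9 in old females. The ages were ordered in opposite ways in the sexes, with a ratio of 2.33 in females and 0.659 in males. The old female level was no higher than that of the young male beyond 0.2 RPKM, whereas for Lpl it was over 4 times the young male's. Fabp4, the fatty acid binding protein of the fat cell cytosol, was the flattest member, at 41.5 RPKM in both young libraries, 34.3 in old males and 52.5 in old females. Its ratio of old to young was 1.27 in females and 0.825 in males.

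The order of these 3 was another in old females. Cd36 was highest everywhere. Fabp4 lay above Lpl in young males, young females and old males, with Lpl at 0.432, 0.186 and 0.538 of the Fabp4 level, and Lpl lay above Fabp4 in old females at 1.52 times. Cd36 was 10.5 times Lpl in both young libraries, 6.70 times in old males and 2.35 times in old females. No spread is known for neighbours in this order.

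Storage genes were low. Cidec, a protein that fuses lipid droplets into 1 large droplet, had 0.490 RPKM in young males, 0.265 in young females, 0.574 in old males and 2.39 in old females. The old female lay above the rest, which spanned 0.265 to 0.574, and the ratio of old to young was 9.02 in females and 1.17 in males. Plin1, the perilipin that coats the droplet of fat cells and gates lipolysis, was listed in old females only, at 0.788 RPKM and 5319 bases. This was at least 6.30-fold above the lowest listed value of the young female table, and the authors' deposited table gives 0.0233 RPKM there and a ratio of 33.9. Pck1, the cytosolic PEP carboxykinase that makes glycerol phosphate for re-esterification in fat, was also listed in old females only, at 0.346 RPKM and 3189 bases. The authors' deposited table has it at 0.0366 RPKM in young females, 9.45-fold lower.

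The members lie on 8 chromosomes in mm10, all protein-coding, with no other gene of the GENCODE vM21 annotation overlapping any of them on either strand. As the tables give them, Adipoq spans chr16:23146536-23157968, Cfd chr10:79890853-79892660, Lpl chr8:68880555-68906932, Retn chr8:3655770-3659818, Fabp4 chr3:10204343-10208576 and Cd36 chr5:17781690-17888959. Plin1 spans chr7:79721164-79732776, Cidec chr6:113424634-113435760, Lep chr6:29060221-29073876 and Pck1 chr2:173153073-173159253.

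The comparison of ages in females asked what differs in the aged lid. On the log2(RPKM + 1) scale 6 of the 10 members stood 2-fold or more above young females in old females, Lpl, Cfd, Adipoq, Retn, Cidec and Cd36, against 4.65% of all listed genes. None of the members was at least 2-fold lower, against 2.62%. Since the members were chosen with earlier results of these data known, these shares describe them and are no independent support. The log2 differences were 3.22 for Lpl, 2.71 for Cfd, 2.16 for Adipoq, 1.51 for Retn, 1.42 for Cidec and 1.21 for Cd36. Plin1 had 0.84, Pck1 0.43, Lep 0.38 and Fabp4 0.33. The added 1 RPKM holds down the differences of the low genes: Plin1, Pck1 and Lep were all past 2-fold with a pseudocount of 0.1. The median of the 10 members was 1.32, beside 0.09 over all listed genes. Of the 10 members 4 had a mean of at least 1 RPKM, the filter for the fit across genes (5.33% of the 12094 genes that passed it were 2-fold higher). Cfd passed through its old female level, so the count among those 4 is not used.

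In males none of the members was 2-fold apart, against 0.664% of listed genes higher and 0.177% lower (0.827% higher among genes that passed the filter). The log2 differences were 0.64 for Cfd, 0.26 for Retn, 0.09 for Adipoq, 0.08 for Cidec, 0.04 for Lpl, -0.27 for Fabp4 and -0.60 for Cd36, and the remaining 3 members were not listed in either male library. The median was 0.02, beside 0.00 over all listed genes, and the 3 members unlisted in males enter it as differences of exactly 0. With a pseudocount of 0.1, Cfd and Retn passed 2-fold in males too. A total of 5 members, Adipoq, Cfd, Retn, Lpl and Cidec, had a higher RPKM in both old libraries than in both young, where 20.2% of listed genes did, and for Lpl and Cidec the old male exceeded the young male by under 1.2 times. All 10 members were highest in old females, as were 48.2% of listed genes, and 3 of the 10 were listed there only, as were 2.16%.

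**Figure D2:**
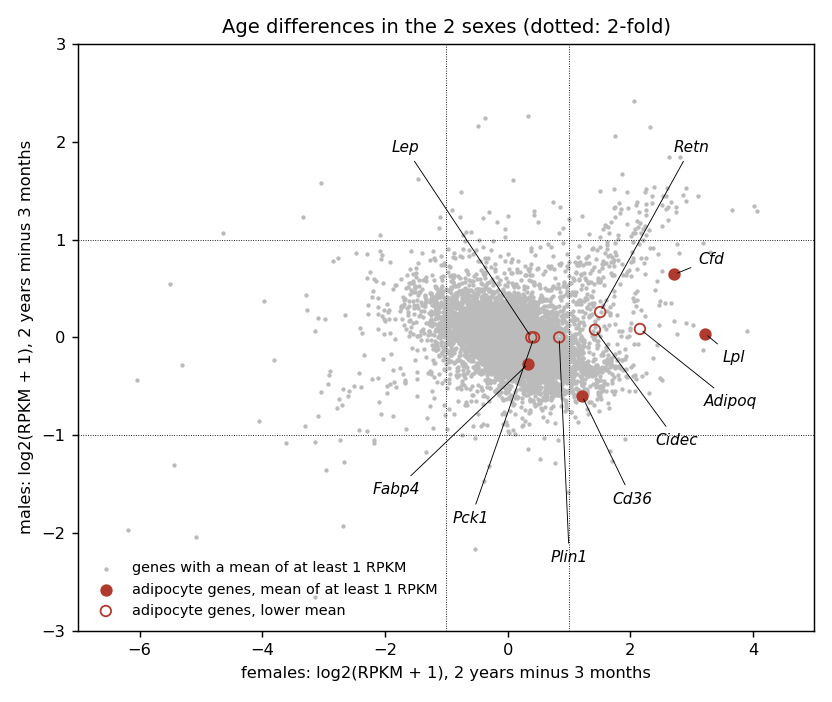
Log2(RPKM + 1) at 2 years minus 3 months in females on the horizontal axis and in males on the vertical axis, grey for genes with a mean of at least 1 RPKM, filled red for the 4 adipocyte genes that pass this filter and open red for the other 6. The adipocyte genes spread from 0.33 to 3.22 in females and from -0.60 to 0.64 in males, and the dotted lines mark 2-fold.

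The difference between the age effects of females and males has no test, since 1 library per group leaves no spread for it. As values, it was 3.18 for Lpl, 2.07 for Adipoq, 2.07 for Cfd, 1.81 for Cd36, 1.34 for Cidec and 1.25 for Retn on the log2 scale, and under 1 for the other 4. The median was 1.29 over the 10 members and 0.11 over all listed genes. The share of all genes past 2-fold in this difference was not counted, so the number of members past it has no background. At 3 months no member was 2-fold higher in the female library (0.291% of listed genes were), and Cd36 and Lpl were 2-fold lower there than in the male (0.752% of genes), by -1.21 and -1.12. Cfd went the other way, at 0.46. At 2 years 5 members, Cfd, Lpl, Adipoq, Retn and Cidec, were 2-fold higher in the female library than in the male (1.47% of genes) and none was lower (1.54%). The old female comparison with the old male and that with the young female share the old female library, so they are not separate evidence.

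A fit of age averaged over sex was made across all genes with limma, with sex as a term and 1 residual degree of freedom. That degree of freedom is the difference of the age effects between the sexes, so the SE includes it and measures no replicate spread. None of the 12094 genes passed an adjusted p of 0.05 (0%), and 355 had an unadjusted p under 0.05. The sex term gave 0 genes as well, with 74 at an unadjusted p under 0.05. Lpl had an averaged difference of 1.63 ± 0.82 (log2, SE, 2 old against 2 young libraries, limma adjusted p = 1), Cd36 0.31 ± 0.53 and Fabp4 0.03 ± 0.25, with the same adjusted p. Cfd passed the filter only through old females, so its value is given from the fit without the filter, 1.68 ± 0.51 with a limma adjusted p of 0.9796. In that fit Adipoq had 1.12 ± 0.50, Retn 0.88 ± 0.32, Cidec 0.75 ± 0.35 and Plin1 0.42 ± 0.24, each with limma adjusted p = 1. Fits that left out a library also dropped the sex term, so sex and age are partly mixed in them. Without the old female library Lpl had 0.60, Cd36 0.01 and Fabp4 -0.27. Within males the old minus young differences of these genes were 0.04, -0.60 and -0.27. Without the young female library Lpl had 1.07, Cd36 -0.30 and Fabp4 0.03, so the values depend on both female libraries. Without the old male library 114 genes passed as higher and 39 as lower, but the old arm is then 1 library, assumed to vary like the young pair, which alone gives the spread. Cfd was among the 114, with a limma adjusted p of 0.0394 against 0.9207 to 1 under the other alternatives, and this call also depends on the filter it passed through old females.

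The authors' deposited tables of their own comparisons hold 8 of the 10 members among the 1983 genes higher in old females (8.38% of the 23650 genes behind their Bonferroni factor) and 2, Cfd and Retn, among the 673 higher in old males (2.85%). None is in their tables of genes lower at 2 years (3.17% in females and 1.33% in males). The 2 members missing from the female table are Fabp4, whose ratio was under 2, and Cd36, whose ratio was 2.33 at a level above every value that table contains (113.8 RPKM at most).

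Other fat cell genes were followed from lists written with earlier results of these data known. Of 10 other secreted products of fat, 2 were 2-fold higher in old females and 1 in old males, with medians of 0.62 and 0.00. Rarres2, the chemoattractant chemerin, was the gene in both, at 0.660 and 2.56 RPKM in young and old males and 0.439 and 6.07 RPKM in young and old females, and later pairs of levels give the young library first. Angptl4, a secreted inhibitor of lipoprotein lipase, had 6.67 and 20.5 RPKM in females, against 13.8 and 8.76 in males, so that it was higher with age in one sex and lower in the other. Rbp4 and Agt, further secreted products of fat, were listed in old females only, at 0.175 and 0.247 RPKM.

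Of 15 other droplet and lipolysis genes 5 were 2-fold higher in old females and 0 in old males, with medians of 0.71 and -0.18. Plin2, the perilipin of many lipid-storing cells, had 377.7 and 966.2 RPKM in young and old females and 817.6 and 518.3 in young and old males, the order of libraries that Cd36 had. Cidea, the droplet protein of brown fat and of sebaceous cells, had 304.2 and 790.4 RPKM in females, against 617.3 and 490.6 in males. Fitm2, an endoplasmic reticulum protein of droplet formation, and Mgll, monoacylglycerol lipase, had log2 differences of 1.73 and 1.69 in females and -0.58 and -0.24 in males. The lipases of the fat cell did not move together: Pnpla2, adipose triglyceride lipase, had 0.99 in females and -0.22 in males, and Lipe, hormone-sensitive lipase, -0.45 and -0.07. Plin4 had 0.71 and -0.73. Adrb3, the beta-3 adrenergic receptor of fat cells, was listed in old females only, at 0.152 RPKM.

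Among uptake genes 1 of 9 listed was 2-fold higher and 1 lower in old females, and 0 either way in old males, with medians of 0.50 and 0.00. Fabp5, the fatty acid binding protein of epidermis and gland, had 309.6 and 853.2 RPKM in females, and Acsl1, which activates long-chain fatty acids, 104.9 and 47.0 RPKM. Gpihbp1, the capillary protein that holds lipoprotein lipase, was listed in old females only, at 0.534 RPKM, as was Slc7a10, an amino acid carrier of white fat cells, at 0.431. Slc2a4, the insulin-regulated glucose transporter of fat and muscle, had 3.05 and 5.57 RPKM in females, against 3.37 and 4.19 in males. In triglyceride synthesis 7 of 14 listed genes were 2-fold higher in old females and 1 in old males, with medians of 1.005 and -0.26. Car3, a carbonic anhydrase of fat and muscle, was the gene in both, with 1.35 and 15.5 RPKM in females, against 0.421 and 4.09 in males. Gpd1, which supplies glycerol phosphate, had 7.03 and 42.3 RPKM in females, against 14.03 and 13.2 in males. Scd1 and Gpam differed by 2.04 and 1.65 in females and by -0.39 and -0.72 in males.

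The transcription factors had medians of 0.69 in females and -0.21 in males, with 3 of 11 listed genes 2-fold higher and 1 lower in old females and 0 either way in males. Pparg, the receptor named above, had 9.87 and 34.5 RPKM in females, against 23.5 and 16.8 in males, and Cebpa 60.2 and 133.5 in females and 91.0 and 69.8 in males. Nr1h3, the oxysterol receptor LXR alpha, had 0.715 and 2.81 RPKM in females, against 0.965 and 1.11 in males, whereas Cebpd was lower in old females (15.8 and 6.68 RPKM). Pparg and Cebpa were thus present at 9.87 RPKM or more in libraries in which Adipoq, Plin1 and Lep were near or under the listing limit. Receptors differed less, with medians of 0.28 and 0.06 over 9 genes and none 2-fold apart in either sex. Adipor1, an adiponectin receptor, had 155.0 and 91.0 RPKM in females, and Adipor2 35.4 and 58.3. Lepr, the leptin receptor, was listed in the old libraries only, at 0.294 RPKM in males and 0.802 in females.

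Of 10 brown and beige fat genes, Ucp1, the uncoupling protein that defines brown fat, Zic1 and Ebf2 were in no table, and the other 7 were listed in every library. Ppargc1a lay between 0.895 and 1.13 RPKM, Prdm16 between 1.03 and 1.56, Dio2 between 0.796 and 1.66, Cox8b between 15.01 and 25.1 and Cox7a1 between 20.97 and 40.4. Cidea and Elovl3, which brown fat shares with the gland, were the 2 of 7 listed brown fat genes that were 2-fold higher in old females, and the list's medians were 0.17 and 0.15. Of 9 progenitor genes 4 were 2-fold higher and 1 lower in old females and 0 in old males, with medians of 0.69 and 0.09. Pi16 and Cd34, surface markers of progenitor fibroblasts, had log2 differences of 2.77 and 1.63 in females and 0.95 and 0.27 in males, and Ly6a -1.05 and 0.74. Dlk1, the preadipocyte factor, was listed in old females only.

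**Figure D3:**
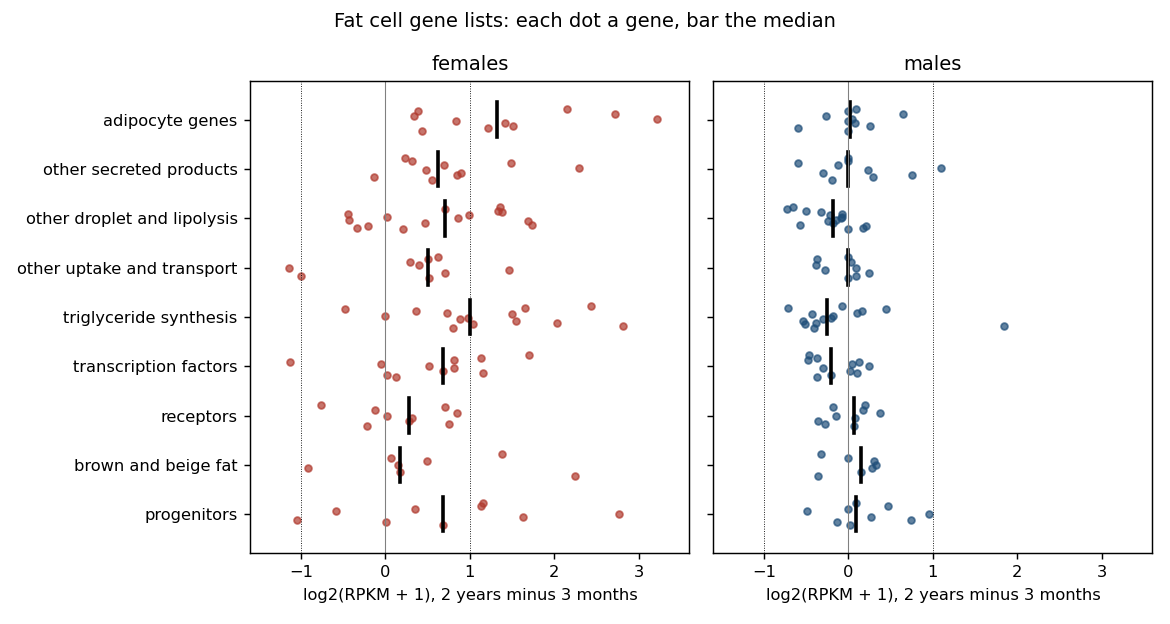
Log2(RPKM + 1) at 2 years minus 3 months for each listed gene of the 10 adipocyte genes and of 8 further fat cell lists, females on the left and males on the right, with a black bar at the median of each list and dotted lines at 2-fold. The adipocyte genes have the highest median in females (1.32), followed by triglyceride synthesis (1.005), and in males all medians lie between -0.26 and 0.15.

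Markers of the other cell types of the lid also differed between the libraries. The 7 members other than Cd36, Fabp4 and Lpl, grouped after their levels were seen, summed to 0.948 RPKM in young males, 1.07 in young females, 2.03 in old males and 19.9 in old females, with an unlisted gene read as 0. The 10 endothelial markers summed to 7.995, 6.52, 8.26 and 24.7 RPKM in the same order, and 6 of them were 2-fold higher in old females. Flt1 made up 4.88, 3.88, 2.91 and 7.74 RPKM of these sums. It was lower in old than in young males, while the other 9 markers were higher by any margin. Kdr and Tek, receptors of endothelium, were in neither young table. The 10 fibroblast markers summed to 68.3, 70.6, 123.0 and 275.7 RPKM with 8 higher in old females and 2 in old males, and the 10 muscle markers to 293.9, 254.3, 790.5 and 1377 RPKM with 9 higher in each sex. The 10 meibocyte markers summed to 6049, 2779, 4443 and 7777 RPKM with 8 higher in old females and 0 in old males, the order of libraries that Cd36 and Plin2 had. The 9 listed macrophage markers summed to 199.2, 175.1, 156.9 and 259.4 RPKM with 2 higher in old females, and all 9 were listed in all 4 libraries. The 9 listed epidermal markers summed to 11902, 15613, 13153 and 5695 RPKM with 5 lower in old females and 2 higher there by any margin. The sum hides larger differences. In young and old females Krt1 had 490.1 and 6.46 RPKM, Krt10 732.4 and 17.5 and Lor 172.6 and 3.02. In males these genes had 514.7 and 380.2, 625.2 and 512.4, and 164.0 and 65.8 RPKM. The part of each cell type in the levels of the adipocyte genes was not tested.

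**Figure D4:**
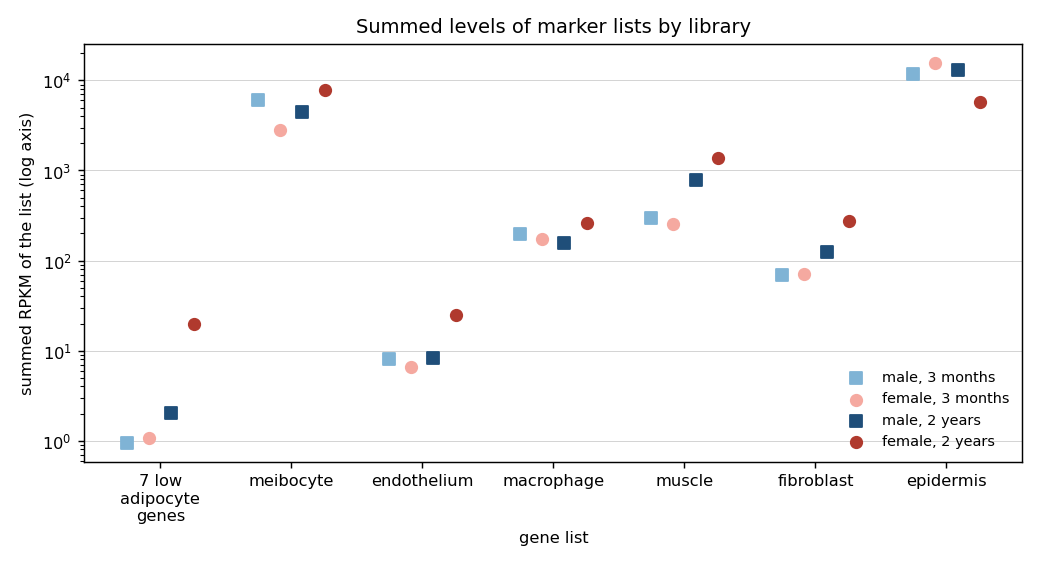
Summed RPKM, on a log axis, of the 7 low adipocyte genes and of the marker lists of 6 other cell types in the 4 libraries, with unlisted genes read as 0. The old female library is highest for every list except epidermis, where it is lowest at 5695 RPKM, and the sum of the 7 adipocyte genes spans 0.948 to 19.9 RPKM.

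The distance between the centred log2(RPKM + 1) values of 2 genes over the 4 libraries was used to find the genes of most similar pattern outside the members, a description over 4 points. Only genes with a mean of at least 1 RPKM were searched, so genes as low as most members could not appear. Vcan, Sfrp2, Nid1 and Nr1h3 passed this filter through their old female level, so their likeness to the members was partly set by it. Closest to Adipoq were Vcan (0.14), Sgpp2 (0.21), Mmp2 (0.23), Sdpr (0.24) and Sfrp2 (0.28), of which Vcan encodes the matrix proteoglycan versican and Mmp2 a matrix metalloproteinase. Vcan had 0.388, 0.194, 0.460 and 3.76 RPKM in young males, young females, old males and old females. Closest to Lpl were Ceacam12 (0.23), Mettl7b (0.43), Serpina3n (0.52), Sprr2g (0.57) and Gpd1 (0.57), and Ceacam12 had 14.9, 6.21, 16.4 and 57.3 RPKM. Closest to the median of the members were Nid1 (0.08), Nr1h3 (0.11), Slit3 (0.12), 1110057K04Rik (0.13) and Pilrb2 (0.13). Set against the summed marker lists in the same way, Fabp4, Pck1, Lep and Plin1 were nearest to the macrophage markers (0.17, 0.27, 0.28 and 0.34) and Retn, Cidec and Adipoq to the endothelial markers (0.24, 0.30 and 0.35). Pck1, Lep and Plin1 were listed in old females only, and the added 1 RPKM keeps their differences small. Their nearness to the macrophage sum, which spanned 156.9 to 259.4 RPKM, thus reflects small differences and does not assign them to a cell type. Cd36 was nearest to the meibocyte markers (0.27), and Cfd to the fibroblast (1.05) and Lpl to the endothelial markers (1.03) at larger distances.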

How the data were processed

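RNA of the lower eyelid was measured in 4 libraries, 1 per age and sex. TopHat, Cufflinks and the build mm10 are named, without versions or roles, in the submitters' processing notes, which leave the counting rule and strand setting unstated. Deposited RPKM values, per the file headers, start at 0.12502 to 0.12513 RPKM in the 4 tables. A further column, headed as a raw count, was read as a signal of summed base coverage, which in the tables the authors made adds up to 3.16 to 3.91 gigabases for each library. Read depth is therefore unknown, and no count test or counting interval is given. The authors' deposited tables of their own comparisons give RPKM, a fold or signed ratio, a score of old over young, and p-values with Bonferroni adjustment, which are not printed here. How these p-values obtained a spread from single libraries is not stated.

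Symbols on more than 1 row (2) were left out, and 15154 of 15816 were in GENCODE vM21. A pseudocount of 1 RPKM was added before log2, which understates changes of low genes, and a gene missing from a table was read as 0. Differences of log2 values were called at 2-fold. Age and sex effects were fitted across the 12094 genes with a mean of at least 1 RPKM with limma 3.58.1 in R 4.3.3 (intensity trend, Benjamini-Hochberg at 0.05), which was tested on simulated data. The fit leaves 1 residual degree of freedom, which is the difference of the age effects between the sexes. The p-values thus hold for these 4 libraries only and reflect no scatter between replicates. Alternatives were other pseudocounts, filters, scalings, a limma fit without trend or without sex, and leaving out each library. Fits that left out a library had no sex term. Named were all members, up to 4 genes per list with the largest difference past 2-fold and standard partners of the members. Rbp4, Agt, Adrb3, Slc7a10, Dlk1, Zic1, Ebf2, Ppargc1a, Prdm16, Dio2, Cox8b, Cox7a1, Kdr, Tek and Flt1 fall outside this rule and were named after their values were seen. The members and lists were chosen with earlier results of these data known.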

Additional observations from a re-analysis of the deposited data

Results flagged for a closer look

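Cd36 and Fabp4 differed with age in opposite directions in females and males. The log2 difference of old minus young was 1.21 in females and -0.60 in males for Cd36, and 0.33 and -0.27 for Fabp4. With 1 library per group the difference between the sexes was not tested, and for Fabp4 neither value reached 2-fold.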

How the results depend on the processing

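The pseudocount moved the counts most. With 5 RPKM the members 2-fold higher in old females numbered 3 with a median of 0.47, those 2-fold lower in young females than young males 1, those higher in old females than old males 2, and the difference of age effects had 3 members past 2-fold with a median of 0.51. With 0.1 RPKM, 9 members were 2-fold higher in old females with a median of 2.96, the difference of age effects had 9 past 2-fold with a median of 2.37, 2 members were higher in old males, 1 in young females against young males and 8 in old females against old males, with a median of 2.13. Without Cd36, Fabp4 and Lpl, an alternative chosen after seeing the data, the median age difference was 1.42 in females and 0.08 in males. Of the 12094 genes with a mean of at least 1 RPKM, 645 were higher and 408 lower in females and 100 and 26 in males. A pseudocount of 5 gave 320 and 239 in females and 41 and 11 in males. A pseudocount of 0.1 gave 887 and 513 in females and 200 and 54 in males. A mean of at least 5 RPKM gave 393 higher in females and 66 in males. For the comparisons of the sexes and the difference of age effects, no such counts over all genes were made at these pseudocounts. Of the 10 members 6 fail the filter of 1 RPKM, so the counts of members and of genes here are over unlike sets. The counts of members at these pseudocounts therefore have no matching background. Leaving out each library in turn gave 0 to 114 genes higher and 0 to 39 lower by limma, the highest without the old male library, where 1 old library is assumed to vary like the young pair. With up to 3 mismatches 5 of the 8 members with a window had a DR1, which 24.6% of all windows then hold. Scaling by medians or filling unlisted genes with the lowest listed value moved no count of members by over 1.5 times, and no value past a threshold changed sign. The averaged age difference of Cd36, which passed no threshold, was -0.30 without the young female library against 0.31 with it. No paired analysis was possible because each group has 1 library. The age fit keeps sex as a term, except in the fit without sex and in those that leave out a library. The causes of these shifts were not tested.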

Other observations

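The authors' deposited comparison tables end well below the most abundant genes. The highest RPKM in any row is 113.8 in the table of genes higher in old females and 72.6 in that for old males. In the expression tables, 103 genes with a level above 113.8 RPKM had a ratio of old to young females of 2 or more, Cd36 and Scd1 among them, and 0 of the 103 are in that comparison table. Of genes 2-fold lower in old females above its highest value of 109.4 RPKM there were 99, and 0 are in the corresponding table.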
